A study of Arabidopsis thaliana with 24 samples.

Results

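The atmyc2 by cop1-6 interaction in darkness asks whether losing AtMYC2 changes a transcript by the same amount in seedlings with and without the cop1-6 mutation. For each of 22746 probe sets (all but 64 of the 22810 on the array, which are controls) it is the log2 difference between the atmyc2 cop1-6 double mutant and cop1-6, minus the log2 difference between atmyc2 and wild type (WT). The comparison used 8 of the 24 arrays of the series. A value of 0 means that the 2 mutations add on the log2 scale, a positive value places the double mutant above that expectation, and a negative value places it below.

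All 8 arrays were hybridised with total RNA from whole Arabidopsis thaliana seedlings of the Columbia ecotype, grown for 10 days in constant darkness at 22 ± 1 °C on MS plates after a cold treatment of the sown seed. The 4 groups were WT, the atmyc2 mutant, the cop1-6 mutant and the double mutant, with 2 biological replicates each. The labels do not name the atmyc2 allele, and cop1-6 is known as a weak, viable allele. The labels do not say that replicates came from separate sowings, so p-values measure only the spread between these samples.

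COP1 is a ubiquitin ligase subunit that, in darkness, sends transcription factors of the light response for degradation. Seedlings that lack COP1 activity therefore take on features of light-grown plants in the dark. AtMYC2 belongs to the basic helix-loop-helix family of transcription factors and is known for its role in jasmonate responses and as a negative regulator in blue light signalling.

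MYC2 and COP1 have no probe set listed under their names in the annotation used here, so the mutated genes themselves were not measured by name. The lines with and without AtMYC2 were separated by a probe set that has no listed gene and was picked for its values. Its signal was 179.5 and 194.8 in WT and 91.7 and 124 in cop1-6, against 2.2 and 10.9 in atmyc2 and 1.1 and 0.4 in the double mutant. Since it was picked for this separation, it is no check of the labels. Replicate arrays correlated at r = 0.946 in WT, 0.957 in atmyc2, 0.947 in cop1-6 and 0.970 in the double mutant, each over all probe sets. Replicate 2 of cop1-6 correlated more closely with replicate 2 of the double mutant (0.954) than with its own replicate. Its probe set for 25S ribosomal RNA read 189.9, against 86.9 and 43 in the double mutant and 4.6 to 11.7 on the other 5 arrays. The poly-A control transcripts added during labelling averaged 969 to 1110 on the 4 arrays without cop1-6 and 235 to 380 on the 4 arrays with it, so in comparisons across cop1-6 this handling difference and the genotype cannot be told apart. The interaction subtracts 2 differences that each lie within one cop1-6 state. Whether the handling difference also entered the interaction was not tested.

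At many probe sets in dark-grown seedlings the effect of losing AtMYC2 differed with and without cop1-6 by the main test. Plastid-encoded genes, the largest gene list with 69, held the most calls, with 46.4% called. Some smaller lists had a higher share called, such as branched-chain amino acid breakdown (66.7%). In limma's moderated test with Benjamini-Hochberg adjustment over all probe sets, 1516 of 22746 (6.66%) departed from additivity at an adjusted p under 0.05. Of these, 771 (3.39%) lay above additivity with a median interaction of 1.44, and 745 (3.28%) lay below with a median of -1.395, beside a median of 0.09 over all probe sets. A gene symbol was available for 147 of the 1516, so the named genes below are a small share of the whole.

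The count depended on limma's trend and robust options: without them 0 probe sets passed, and all 42 probe sets named below lost their call. The count also depended on single arrays. It was 379 without WT replicate 1, 581 without WT replicate 2, 199 without atmyc2 replicate 1 and 220 without atmyc2 replicate 2. It was 506 without double mutant replicate 2 and 85 without double mutant replicate 1. It rose to 4208 without cop1-6 replicate 2, the array whose replicate correlation and ribosomal RNA signal are given above, and was 1098 without cop1-6 replicate 1. Direction was checked only for called probe sets that still passed on leaving out an array, and none of those changed direction.

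The 4 simple comparisons set the scale. Relative to WT, atmyc2 had 574 probe sets higher and 490 lower (4.68% in all). Relative to cop1-6, the double mutant had 203 higher and 177 lower (1.67%). The cop1-6 mutant differed from WT at 4374 (19.2%), and the double mutant differed from atmyc2 at 6974 (30.7%). Each pair of these comparisons other than the first with the second, and the third with the fourth, shares arrays of 1 group.

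Among the 1516 non-additive probe sets, 653 had an atmyc2 effect that passed the test only without cop1-6, of which 379 lay below additivity and 274 above. Another 249 had an atmyc2 effect that passed only with cop1-6, 27 had effects that passed in both backgrounds with opposite signs, and none had effects that passed in both with the same sign. For 587 neither simple effect passed although the difference between them did. These classes moved with single arrays too: the first held 37 probe sets without double mutant replicate 1, 49 and 51 without atmyc2 replicates 1 and 2, 153 and 207 without WT replicates 1 and 2, 258 without double mutant replicate 2 and 1255 without cop1-6 replicate 2. The second held 31 without double mutant replicate 1, 75 and 92 without atmyc2 replicates 1 and 2, 116 and 139 without WT replicates 1 and 2, 108 without double mutant replicate 2, 157 without cop1-6 replicate 1 and 1292 without cop1-6 replicate 2. The third held 1 without either atmyc2 replicate, 3 without WT replicate 1 or double mutant replicate 1, 14 without WT replicate 2, 4 without double mutant replicate 2 and 517 without cop1-6 replicate 2. The fitted atmyc2 effects had opposite signs in the 2 backgrounds for 1427 of the 1516 (94.1%), a share that the selection of large interactions itself favours.

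**Figure D1:**
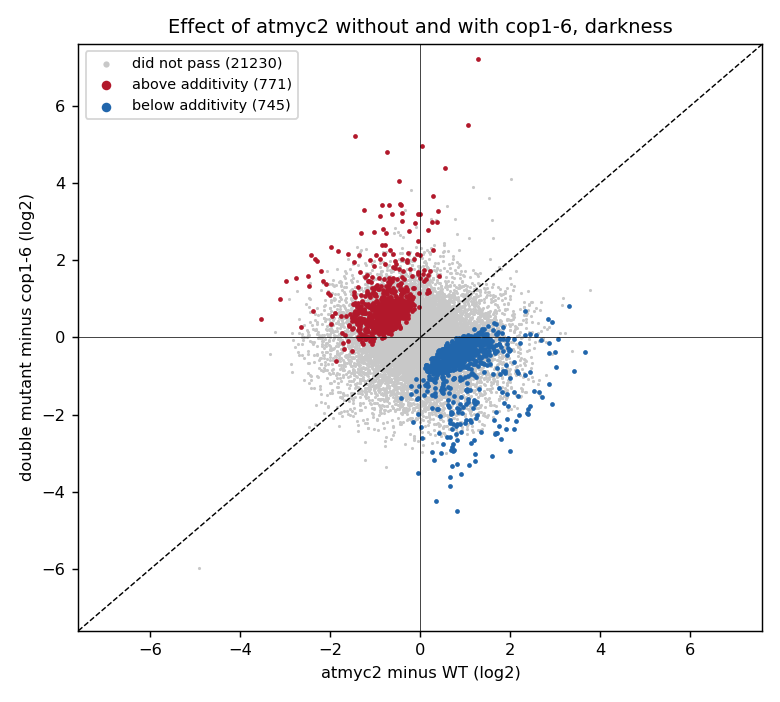
Each point is 1 probe set, with the log2 difference atmyc2 minus WT on the horizontal axis and double mutant minus cop1-6 on the vertical axis; the dashed line marks additivity. The 771 probe sets above additivity lie mostly in the upper left and the 745 below it mostly in the lower right, where the 2 effects have opposite signs.

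The 4 group means took several shapes. A group was said to stand apart when its log2 mean lay farther from the nearest other mean than the spread of the other 3. The atmyc2 mutant stood apart at 289 of the 1516 probe sets (19.1%, beside 12.8% of all tested), being highest at 158 and lowest at 131. The double mutant stood apart at 239 (15.8%, beside 13.6%), highest at 134 and lowest at 105. WT stood apart at 234 (15.4%, beside 12.7%), with 150 where it was lowest and 84 where it was highest. The cop1-6 mutant stood apart at 43 (2.84%, beside 7.37%), and at 711 no group did (46.9%, beside 53.5%).

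Non-additive probe sets were more frequent among bright ones. The share called was 0.563%, 2.16%, 7.95% and 16% in 4 equal bins of probe sets ordered from the lowest to the highest mean signal. Restricted to the 14589 probe sets with at least 1 group mean over the dim level of 19.1 (the 40th percentile of all values), it was 10.1%. Gene lists below are set beside shares over all probe sets, dim ones included. For lists of mostly brighter genes, such as redox and glutathione (14 of 19 over the dim level), that base is lower than for probe sets of like signal. By location the share lay between 5.54% and 6.45% on the 5 nuclear chromosomes and was 46.4% for plastid-encoded genes.

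Plastid-encoded genes lay below additivity at 31 of the 69 listed, beside 3.28% of all probe sets, and above it at 1. Their median interaction was -1.23. The mean log2 signal over the 69 genes was 5.53 and 5.54 in WT, 6.69 and 6.73 in atmyc2, 8.24 and 8.16 in cop1-6, and 8.12 and 8.20 in the double mutant. Both single mutants thus lay above WT, while the double mutant overlapped cop1-6. In atmyc2 against WT, 37 of the 69 rose and none fell, and in cop1-6 against WT 56 rose and none fell. In the double mutant against cop1-6, 1 rose and 2 fell. For 28 of the 31 genes below additivity the atmyc2 effect passed only without cop1-6. The count of 31 was 17 and 19 without atmyc2 replicates 1 and 2 and 11 without double mutant replicate 1. Of the dark arrays' technical measures, the ratio of 3' to 5' GAPDH probe signals (log2) was -0.32 and -0.33 in WT and between -0.10 and 0.01 in the other 3 groups; its part in the plastid values was not tested.

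All 15 photosystem II genes had an interaction under 0 and 11 passed, with a median of -1.80. The psbK gene, which encodes a small photosystem II subunit, had the lowest p of all 22746 probe sets. Its signal was 132.1 and 106 in WT, 1244.1 and 1295 in atmyc2, 3013.5 and 2261.8 in cop1-6, and 1414.3 and 1441.4 in the double mutant. No 2 groups overlapped: the double mutant lay above atmyc2 and below cop1-6. Its interaction was -4.28 (SE 0.24, limma adjusted p = 9.21e-06), and it passed without any of the 8 arrays.

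The psbA gene, which encodes the D1 reaction centre protein, read 112.4 and 154.1 in WT, 267.5 and 277.4 in atmyc2, 1149.1 and 1073.2 in cop1-6, and 494.1 and 363.4 in the double mutant. Loss of AtMYC2 raised it without cop1-6 (log2 difference 1.04, limma adjusted p = 0.0106) and lowered it with cop1-6 (-1.39, limma adjusted p = 0.00329). Its interaction was -2.43 (SE 0.27, limma adjusted p = 0.00129). The psbI gene, for another small subunit, had group means of 254.85 in WT, 996.55 in atmyc2, 1215.3 in cop1-6 and 917.45 in the double mutant. Only WT stood apart, and the interaction was -2.32.

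Of the 7 photosystem I genes, 5 lay below additivity, and the median was -1.62. The psaC gene, for the subunit that holds terminal iron-sulphur clusters, read 26.1 and 51.3 in WT, 277.1 and 269.2 in atmyc2, 767.4 and 448.1 in cop1-6, and 231.4 and 279.6 in the double mutant. The double mutant overlapped atmyc2 and both lay between WT and cop1-6. Its interaction was -4.07 (SE 0.42, limma adjusted p = 0.000946).

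The cytochrome b6f complex, which passes electrons between the photosystems, had 4 of 6 genes below additivity and a median of -1.79. Its small subunit gene petL averaged 56.4 in WT, 235.4 in atmyc2, 547.95 in cop1-6 and 281.6 in the double mutant, with an interaction of -3.08. The NDH complex, which returns electrons around photosystem I, had 5 of 10 below additivity, 4 with an interaction above 0 and a median of -2.29. Its ndhI gene averaged 270.4 in WT, 1582.45 in atmyc2, 2771.35 in cop1-6 and 2914.45 in the double mutant, which overlapped cop1-6. Its interaction was -2.49. The ndhG gene had the interaction -4.04 from WT readings of 6.2 and 0.5, under the dim level of 19.1, and -2.02 with that level as pseudocount, and its call was lost without atmyc2 replicate 1 or 2, cop1-6 replicate 1, or double mutant replicate 1 or 2. The ndhD and ndhE interactions were -2.20 and -3.05. WT readings of ndhE, 8.5 and 13.8, were also under the dim level, and its interaction was -2.07 with that level as pseudocount.

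The ATP synthase had 2 of 6 genes below additivity. Its atpA gene, for the alpha subunit, read 66.7 and 73 in WT, 390 and 325.2 in atmyc2, 2219.3 and 2054.7 in cop1-6, and 2093.3 and 2364.5 in the double mutant. The double mutant and cop1-6 overlapped, and the interaction was -2.28 (SE 0.22, limma adjusted p = 0.000712). Outside these complexes, ccsA, needed to attach haem to cytochromes, and matK, an intron maturase, had interactions of -2.73 and -2.76.

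For genes of the plastid's own expression machinery the difference from the photosynthesis genes was not tested. Of 15 ribosomal protein genes 2 lay below (rpl32, -1.399, and rps2, -1.15) and 1 above, with a median of -0.45. An unadjusted p under 0.05 was found at 8 of them, and 5 rose in atmyc2 against WT. The rpl32 mean was 131.9 in WT, 369.25 in atmyc2, 1324.3 in cop1-6 and 1334.25 in the double mutant (limma adjusted p = 0.0279), and the calls of rpl32 and rps2 were lost without either replicate of WT, atmyc2 or the double mutant. Of 4 RNA polymerase genes none passed in limma, nor had any an unadjusted p under 0.05 (0 of 4). The rps3 gene, for a small-subunit ribosomal protein, read 141.3 and 99.9 in WT, 67.2 and 76.6 in atmyc2, 92.9 and 235.7 in cop1-6, and 334.9 and 386.7 in the double mutant. The double mutant was highest, while cop1-6 overlapped WT and spanned a wide range. The interaction was 2.00 (limma adjusted p = 0.0289), and its call was lost without either replicate of WT, atmyc2 or the double mutant.

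**Figure D2:**
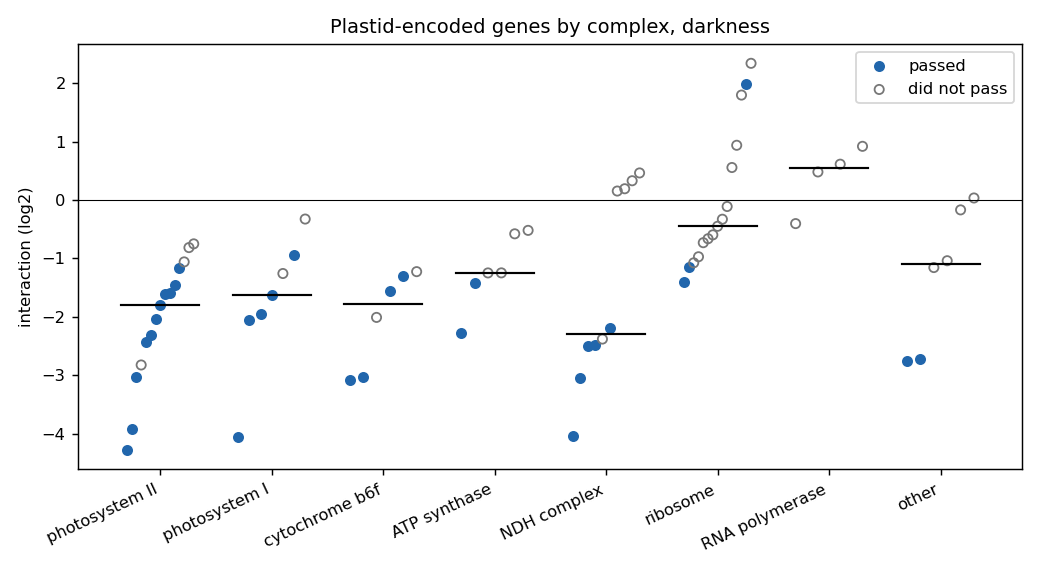
Interaction (log2) of the 69 plastid-encoded genes by complex, 1 circle per gene, filled where it passed the test, with a bar at each median. Photosystem II, photosystem I, cytochrome b6f and ATP synthase genes all lie under 0, while NDH complex, ribosomal protein and RNA polymerase genes lie on both sides of it.

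An additive outcome on the log2 scale would often have been a very high signal. For psbK it was 27799.62, against a measured mean of 1427.85. For 5 probe sets below additivity, all of them named here (psbK, ndhI, matK, ccsA and atpA), the additive value exceeded 10005.3, the highest signal on any of the dark arrays. Whether the arrays could have registered such values was not tested. On the linear scale 739 of the 745 kept an interaction under 0, by sign alone and with no test. Among the 5 genes the linear interaction ran from -2492.1 for ccsA to -195.8 for atpA. The atpA double mutant arrays read 2093.3 and 2364.5.

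**Figure D3:**
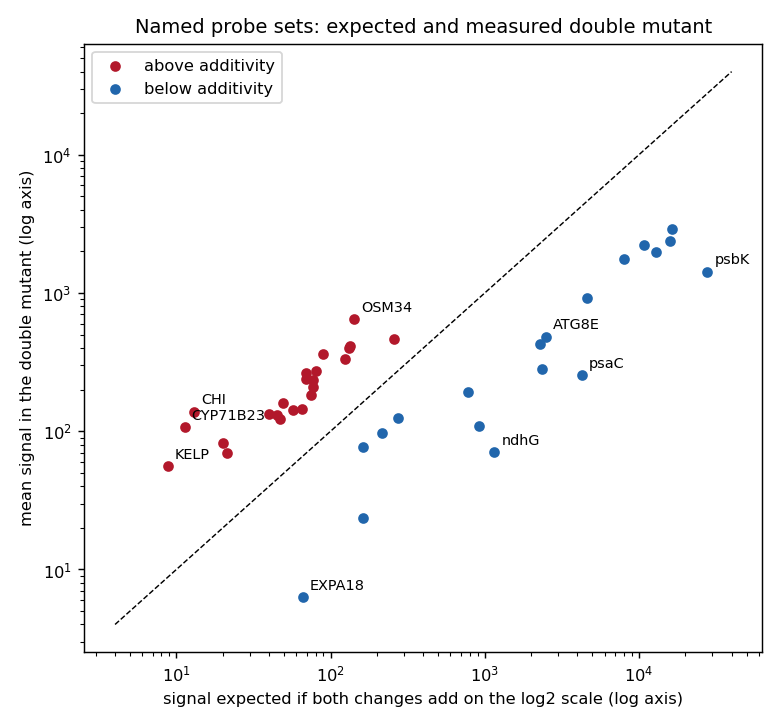
Mean signal in the double mutant (vertical, log axis) against the signal expected if both changes add on the log2 scale (horizontal, log axis) for the 42 named probe sets. All lie off the dashed line of equality, with the 5 rightmost expected above 10005.3.

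Nuclear genes of photosynthesis gave 1 call in all, and their difference from the plastid genes was not tested. None of 4 nuclear photosystem genes, 3 antenna genes or 8 chlorophyll synthesis genes passed in limma, with medians of 0.23, -0.21 and 0.18 and an unadjusted p under 0.05 at 1, 0 and 1 of them. In the Calvin cycle list 1 of 3 passed: PRK, which encodes phosphoribulokinase, read 110.5 and 129.6 in WT, 32.7 and 38.8 in atmyc2, 264.8 and 363.7 in cop1-6, and 290.1 and 270.3 in the double mutant. The atmyc2 effect was -1.72 (limma adjusted p = 0.00112) without cop1-6 and -0.15 (limma adjusted p = 0.779) with it. The interaction was 1.57 (limma adjusted p = 0.00911), and its call was lost without atmyc2 replicate 1 or double mutant replicate 1.

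Of 22 probe sets for mitochondrial genes, 3 lay below additivity (13.6%, beside 3.28% of all probe sets) and none above. The median was -0.83. The 3 were nad5 and both probe sets of nad1, which encode subunits of respiratory complex I. For nad5 the signal was 201.6 and 216.9 in WT, 300.5 and 269.9 in atmyc2, 252.2 and 158.3 in cop1-6, and 121.7 and 129.5 in the double mutant. The double mutant was lowest and atmyc2 highest, and the interaction was -1.11 (limma adjusted p = 0.0445). The 3 calls were all lost on leaving out any array other than cop1-6 replicate 2, without which 14 passed.

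Many named genes above additivity had lower means in both single mutants than in WT or the double mutant. The highest named interaction was that of AT2G43570, a chitinase gene that the annotation calls CHI. It read 73 and 64.5 in WT, 39.3 and 35.4 in atmyc2, 25.8 and 23 in cop1-6, and 178.5 and 98.5 in the double mutant. The groups did not overlap, and the double mutant was highest. Its interaction was 3.26 (SE 0.39, limma adjusted p = 0.00177).

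OSM34, an osmotin-like defence protein, had lower means in both single mutants, with wider spread. It read 1197.5 and 699.7 in WT, 485.1 and 479.6 in atmyc2, 458 and 160.4 in cop1-6, and 696.4 and 603.9 in the double mutant, which lay below both WT arrays. Its interaction was 2.18 (limma adjusted p = 0.0305). WRKY53, a senescence and defence transcription factor, was called above in its list of 6 WRKY and ERF factors, with an interaction of 2.18 (limma adjusted p = 0.0405), or 1.26 with the dim level as pseudocount. It read 58.7 and 45.8 in the double mutant and 10.2 to 19.3 on the other 6 arrays. Its call was kept only without WT replicate 2 or cop1-6 replicate 2.

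Cytochrome P450 enzymes, which oxidise hormones, pigments and defence compounds, had 3 of 22 genes above additivity and none below. This was 13.6% called, beside 6.66% of all probe sets, and the median was 0.21. CYP71B23 read 56.2 and 63.9 in WT, 28.2 and 25.7 in atmyc2, 20.1 and 33.1 in cop1-6, and 116.6 and 98.1 in the double mutant. Loss of AtMYC2 lowered it in WT (-1.13, limma adjusted p = 0.0353) and raised it in cop1-6 (2.01, limma adjusted p = 0.00267), and the double mutant was highest. Its interaction was 3.14 (SE 0.38, limma adjusted p = 0.00177). CYP71B6 and CYP71B5 had interactions of 1.60 and 1.52. The count of 3 was 1 without double mutant replicate 1 and 5 without cop1-6 replicate 2. The other 19 genes ranged from -3.45 to 1.54 and did not pass.

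UDP-glycosyltransferases, which attach sugars to small molecules, had 3 of 47 above (6.38% called, near the 6.66% of all probe sets) and a median of 0.17. UGT74B1, an enzyme of glucosinolate core assembly, read 177.9 and 201.4 in WT, 123.9 and 136.7 in atmyc2, 160.6 and 203.9 in cop1-6, and 364.1 and 300.3 in the double mutant. The double mutant was highest and cop1-6 overlapped WT. Its interaction was 1.403 (SE 0.26, limma adjusted p = 0.0103). UGT87A2 and UGT73B1 had 1.43 and 1.72. The count of 3 was 1 without atmyc2 replicate 1, 0 without atmyc2 replicate 2 or double mutant replicate 1, and 5 without cop1-6 replicate 2.

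Redox and glutathione genes had 3 of 19 above (15.8% called, beside 6.66% of all probe sets), with a median of 0.15. The 3 were GRXC1, a glutaredoxin (1.67), and the glutathione transferases GSTU27 (1.36) and GSTL3 (1.28). GRXC1 read 132.2 and 110.4 in WT, 78.2 and 70.6 in atmyc2, 78.6 and 82.9 in cop1-6, and 180.1 and 142.2 in the double mutant. Both single mutants lay below WT and the double mutant above it. The count of 3 was 1 without WT replicate 1, WT replicate 2 or atmyc2 replicate 1, and 0 without atmyc2 replicate 2 or double mutant replicate 1.

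ALDH2C4, an aldehyde dehydrogenase that forms ferulate and sinapate, read 480.3 and 489.9 in WT, 352.7 and 309.8 in atmyc2, 182.2 and 209.8 in cop1-6, and 450.1 and 381.1 in the double mutant. It was lowest in cop1-6 and the double mutant lay between atmyc2 and WT. Its interaction was 1.63 (SE 0.23, limma adjusted p = 0.0032). EPC1, a glycosyltransferase needed for cell adhesion, had 1.60 and KELP, a transcriptional coactivator, had 2.52 from means of 8.5 to 55.8, or 1.38 with the dim level as pseudocount.

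Several named genes above additivity, including NAI2, bHLH121 and bHLH115, were highest in WT and fell in each single mutant. NAI2, a protein of endoplasmic reticulum bodies, read 1486.6 and 1508.4 in WT, 565.3 and 563.6 in atmyc2, 185.3 and 250 in cop1-6, and 251.5 and 296.3 in the double mutant. WT was highest and the double mutant lay just above cop1-6 and below atmyc2 (log2 difference -1.045, limma adjusted p = 0.000515). Its interaction was 1.75 (SE 0.24, limma adjusted p = 0.00306), and the atmyc2 effect was -1.41 (limma adjusted p = 0.00145) without cop1-6 and 0.34 (limma adjusted p = 0.36) with it.

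In the list of 6 MYB and bHLH factors 3 passed, all above (50%, beside 3.39% of all probe sets). They were bHLH121 (1.31), bHLH115 (1.14) and bHLH104 (0.84), which are known to act together in iron homeostasis. The bHLH121 signal was 273.4 and 260.3 in WT, 112.5 and 122.1 in atmyc2, 118.1 and 144 in cop1-6, and 154.7 and 131.4 in the double mutant. WT alone stood apart. At bHLH104 WT was not highest, since cop1-6 and the double mutant averaged 325.6 and 461.25 against 226.8 in WT and 178.3 in atmyc2. The related bHLH34 and BHLH101 had interactions of 0.10 and 1.31 and did not pass. The count of 3 was 0 without WT replicate 1, atmyc2 replicate 1 or 2 or double mutant replicate 1, and 1 without WT replicate 2 or double mutant replicate 2.

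Chromatin and cytoskeleton genes were among the named probe sets above additivity. HIS1-3, a linker histone induced by drought, read 309.4 and 356.2 in WT, 170 and 182.4 in atmyc2, 143.8 and 120.8 in cop1-6, and 235 and 245.2 in the double mutant. Its interaction was 1.77 (SE 0.24, limma adjusted p = 0.00282), and the double mutant lay between the single mutants and WT. HON4, another linker histone-like protein, had 1.94, with atmyc2 low at 84.7 and 102.8 and the other groups at 166.8 to 285.3. The actin-binding NET4B and the microtubule-associated ATMAP65-6 had 1.99 and 1.65, with WT highest at both.

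Other signalling genes gave single calls. MYC3, a relative of AtMYC2 in jasmonate responses, was the 1 gene of 5 in the jasmonate list that passed. It read 145.8 and 164.5 in WT, 123.9 and 127.5 in atmyc2, 77.2 and 116.2 in cop1-6, and 160.5 and 174 in the double mutant, and its interaction was 1.11 (limma adjusted p = 0.0429). COR47, a dehydrin, and AIM1, of fatty acid beta-oxidation, had 1.25 and 0.94. The MYC3 and AIM1 calls were lost without any array but cop1-6 replicate 2, and the COR47 call without either replicate of WT, atmyc2 or the double mutant. MYC3, COR47, AIM1, PRK, WRKY53 and EXLB1 stand outside the rule for named genes and were picked as the called members of their lists. Of the 31 gene lists in use before the 8 families added last, 16 held no called member, among them auxin response (12 genes, 1 with an unadjusted p under 0.05), flavonoid synthesis (6 genes, 0) and the ethylene-jasmonate defensin branch (5 genes, 1), by limma.

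**Figure D4:**
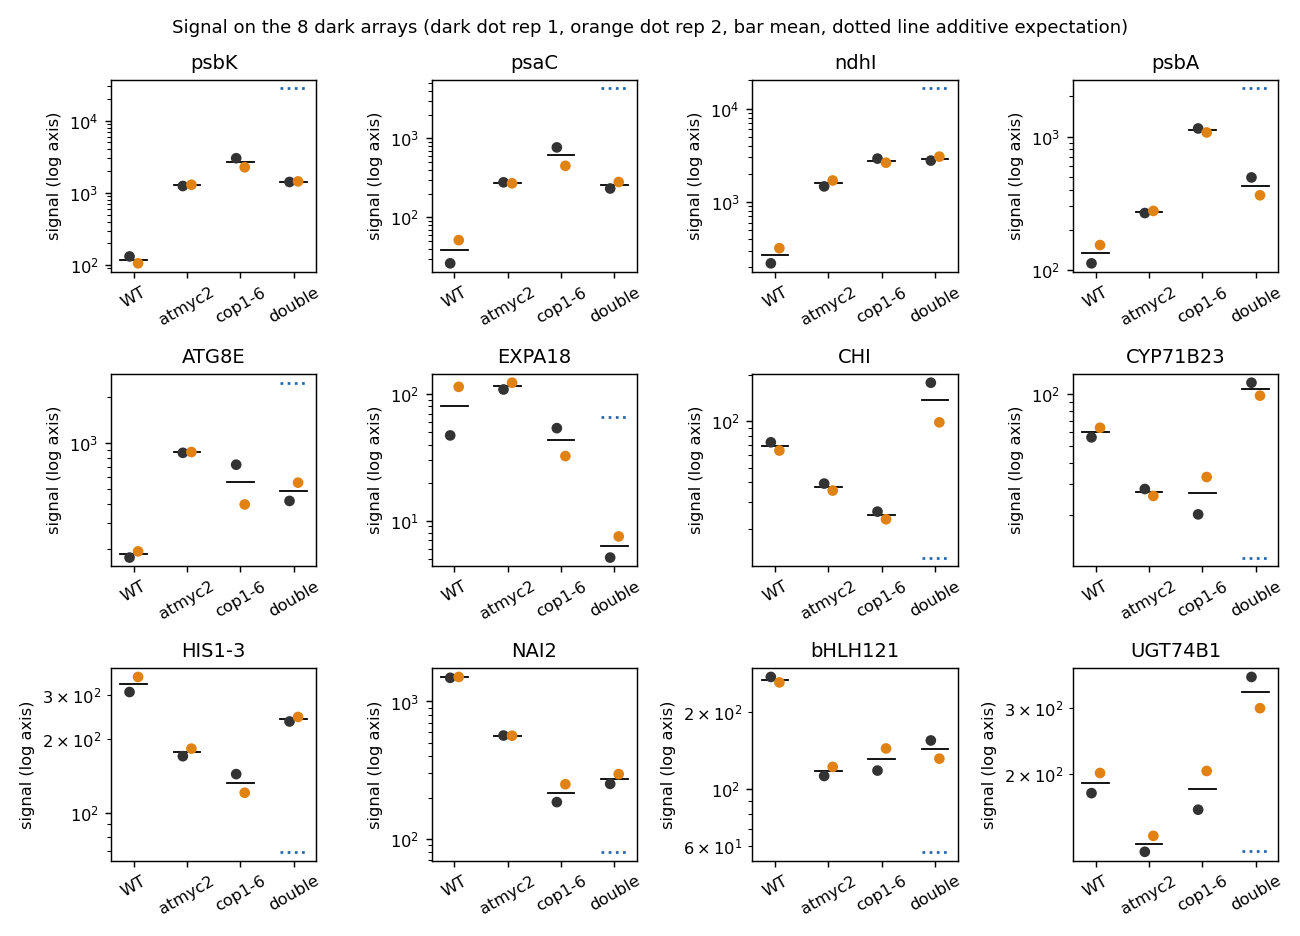
Signal on each of the 8 dark arrays for 12 named genes (log axes), with replicate 1 as a dark dot, replicate 2 as an orange dot, a bar at the group mean and a dotted line at the value additivity would give in the double mutant. In psbK, psaC, ndhI, psbA, ATG8E and EXPA18 the double mutant lies under the dotted line, and in the other 6 genes above it.

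Below additivity outside the plastid, the autophagy gene ATG8E had the interaction -2.38 (SE 0.34, limma adjusted p = 0.00338). ATG8 proteins are attached to autophagosome membranes and recruit cargo. ATG8E read 176.9 and 194.3 in WT, 864.2 and 874.7 in atmyc2, 721.9 and 395.4 in cop1-6, and 417 and 550.1 in the double mutant. The atmyc2 arrays were highest and WT lowest, and the double mutant overlapped cop1-6. Its relatives were looked up after these values were seen. Of 9 listed ATG8 genes 4 lay below additivity, beside 3.28% of all probe sets, the others being ATG8C (-1.87), ATG8D (-1.41) and APG8A (-0.78). ATG8C read 325 and 281.9 in WT, 898.9 and 956 in atmyc2, 784.5 and 504.4 in cop1-6, and 432.9 and 637.2 in the double mutant, again with atmyc2 highest. The other 5 did not pass and ranged from -1.01 for ATG8B to 1.26 for ATG8H. The count of 4 was 2 without WT replicate 1, WT replicate 2, cop1-6 replicate 1 or double mutant replicate 2, 1 without atmyc2 replicate 1 or 2, and 0 without double mutant replicate 1.

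Enzymes of branched-chain amino acid breakdown, a mitochondrial route used when sugar is short, lay on the other side. They were grouped after their values were seen. Of 6 listed genes, 4 lay above additivity (66.7%, beside 3.39% of all probe sets): ETFQO (1.31), MCCA (1.15), ALDH6B2 (0.96) and MCCB (0.81). MCCA, a subunit of methylcrotonyl-CoA carboxylase, read 396.3 and 327.9 in WT, 218.4 and 239.6 in atmyc2, 247.1 and 310.4 in cop1-6, and 426.6 and 359.1 in the double mutant. The double mutant overlapped WT, and both lay above the single mutants. IVD (0.91) and D2HGDH (0.50) did not pass. The count of 4 was 0 without WT replicate 1, atmyc2 replicate 1 or 2, or double mutant replicate 1 or 2, and 1 without WT replicate 2.

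EXPA18, an expansin of root hairs, read 47.2 and 114.4 in WT, 109 and 123.3 in atmyc2, 53.9 and 32.4 in cop1-6, and 5.1 and 7.5 in the double mutant. The double mutant was below all other arrays and under the dim level of 19.1. The interaction was -3.22 (SE 0.55, limma adjusted p = 0.00736), and -1.795 with the dim level as pseudocount (limma adjusted p = 0.027). EXPA7, the other listed root hair gene, had -3.47 and did not pass (limma adjusted p = 0.0635). The median of the 2 was -3.34, and -1.55 with the dim level as pseudocount. Summed over these 2 genes, the only listed root markers, the signal was 57 and 137 in WT, 161 and 152 in atmyc2, 72 and 42 in cop1-6, and 6 and 14 in the double mutant. In whole seedlings, fewer root hair cells and less RNA per cell cannot be told apart.

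HRGP1, a hydroxyproline-rich wall glycoprotein, read 90.7 and 256 in WT, 312.5 and 302.6 in atmyc2, 115.8 and 56.4 in cop1-6, and 23.7 and 23.6 in the double mutant. It was likewise lowest in the double mutant, with an interaction of -2.74 (limma adjusted p = 0.0175). In the list of 28 expansin and wall-loosening genes 2 lay below (7.14%, near the 6.66% of all probe sets), EXPA18 and EXLB1 (-1.83, or -1.14 with the dim level as pseudocount). The EXLB1 call was lost without any array but cop1-6 replicate 2. STR18, a sulfurtransferase, had an interaction of -2.01, with atmyc2 highest at 714.9 and 750.6 and the double mutant lowest at 181.9 and 202.7. The part of the root marker signal in the HRGP1 and EXLB1 values was not tested.

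Of the 42 named probe sets, 13 passed on leaving out any 1 of the 8 arrays: psbK, psaC, ccsA, ndhI, psbA, psbI, atpA and ndhD below additivity, and CHI, CYP71B23, HIS1-3, NAI2 and ALDH2C4 above. For 6 more (ATG8E, CYP71B6, HON4, matK, ndhE and petL) the call was lost only without double mutant replicate 1. GRXC1 lost it also without atmyc2 replicate 2, and EXPA18 and UGT87A2 also without either atmyc2 replicate. The other 20 lost it without 4 to 7 of the single arrays. The number that lost the call was 29 without double mutant replicate 1, 16 without replicate 2, 21 and 23 without atmyc2 replicates 1 and 2, 15 and 16 without WT replicates 1 and 2, 7 without cop1-6 replicate 1 and 0 without cop1-6 replicate 2, by limma.

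The same contrast was taken in blue light (constant blue light of 35 µmol per second and square metre), with 2 arrays for each genotype that the dark contrast does not use. Its test used 1 fit of all 16 dark and blue light arrays. A count from it is therefore not like for like with the 1516 from the 8 dark arrays alone. A dark count from the 16-array fit was not taken. By limma no probe set passed for the blue light interaction (0%), and 1591 had an unadjusted p under 0.05. Without WT replicate 2 in blue light 3 passed, and without double mutant replicate 2 in blue light 4 passed. The difference between the 2 interactions passed at 636 probe sets (2.8%), with 322 above 0 and 314 below, and 518 of the 1516 dark probe sets were among them. Of the 1516, 82.3% had the opposite sign in blue light, against 62.1% of the other 21230. The median blue light interaction was -0.34 for those above additivity in darkness and 0.39 for those below. Across probe sets, which are not independent replicates, the 2 interactions correlated at r = -0.23 over 22746 and -0.59 over the 1516.

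The counts of 322 and 314 moved by over 1.5 times on leaving out 15 of the 16 arrays, all but atmyc2 replicate 1 in blue light. Without dark arrays they were 70 and 119 (WT replicate 1), 85 and 143 (WT replicate 2), 49 and 68 (atmyc2 replicate 1), 73 and 83 (atmyc2 replicate 2), 42 and 66 (cop1-6 replicate 1), 1547 and 776 (cop1-6 replicate 2), 12 and 28 (double mutant replicate 1), and 130 and 173 (double mutant replicate 2). Without blue light arrays they were 28 and 68 (WT replicate 1), 1606 and 969 (WT replicate 2), 16 and 44 (atmyc2 replicate 2), 56 and 89 (cop1-6 replicate 1), 74 and 137 (cop1-6 replicate 2), 93 and 122 (double mutant replicate 1), and 647 and 727 (double mutant replicate 2).

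Among the named probe sets, 24 of 42 differed between darkness and blue light, beside 2.8% of all probe sets. The named probe sets were chosen for large dark interactions, which are 1 term of this difference, so the choice itself favours a high share. For psbK the interaction was 0.24 in blue light, and the difference was -4.52 (SE 0.39, limma adjusted p = 2.92e-05). For CYP71B23 it was -0.98 in blue light, and the difference was 4.12 (SE 0.63, limma adjusted p = 0.00661). For the chitinase gene CHI the difference of 4.00 did not pass (limma adjusted p = 0.128).

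**Figure D5:**
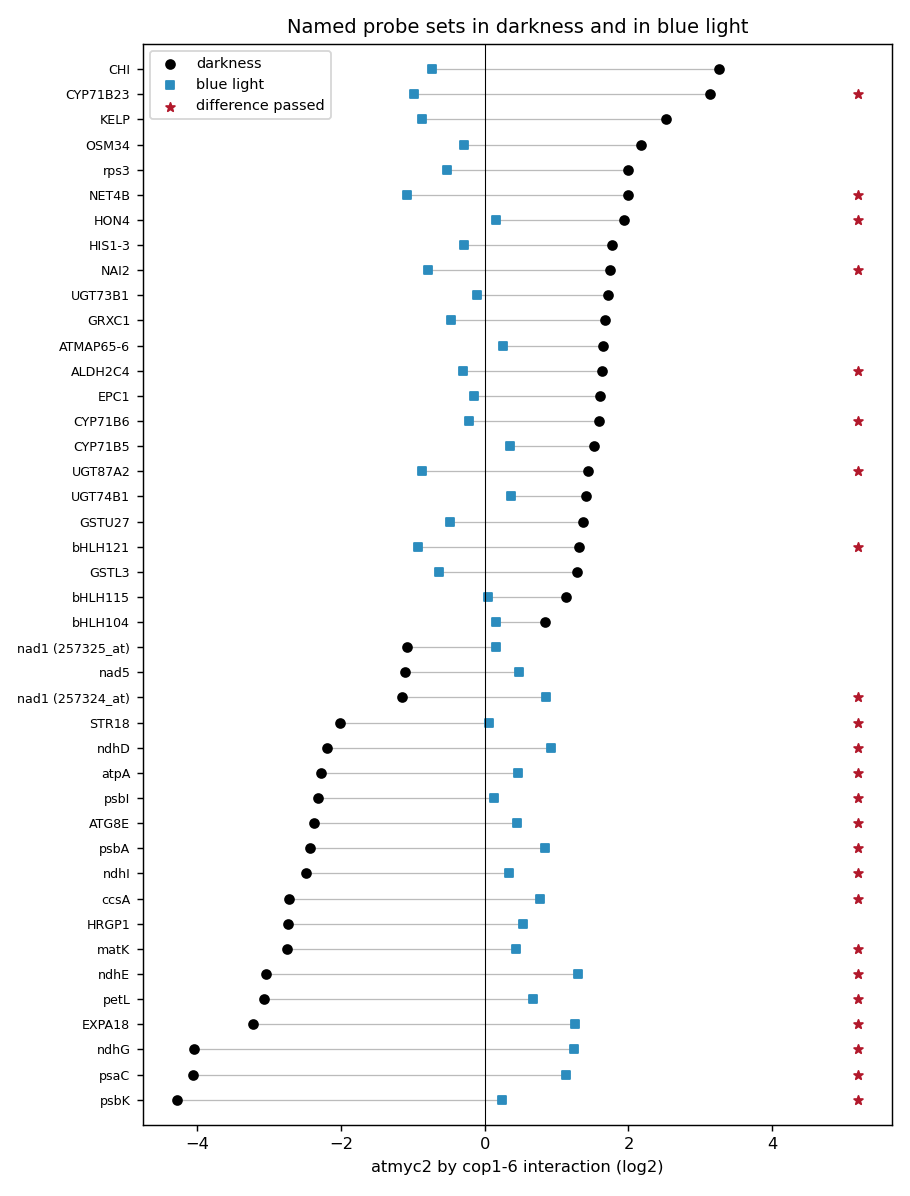
Interaction (log2) of the 42 named probe sets in darkness (black circles) and in blue light (blue squares), with a star where the difference between the 2 passed the test. The blue light values lie between -1.085 and 1.303, and 36 of the 42 have the opposite sign to darkness.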

How the data were processed

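The values are microarray signals from Affymetrix arrays, 1 per probe set and array, in a deposited table of the whole series. Per the submitters' processing notes they came from GCOS 1.4. The deposited values are intensities on a linear scale. Their trimmed mean was 100 on each of the 8 dark arrays, so each had been scaled to the same target, and no method or target is given in the sources used here. Depth has no meaning for arrays: the 2 arrays per group limit the precision.

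From these signals log2(signal + 1) was computed, and a fold or log2 difference is on that scale, which understates changes of dim probe sets. The 8 dark arrays were fitted by group with limma 3.58.1 in R 4.3.3 (trend and robust), all probe sets but 64 controls, with Benjamini-Hochberg adjustment over 22746 and a threshold of 0.05, two-sided. The blue light interaction and its difference from darkness used a fit of 16 arrays. On simulated data the fit recovered 1 of 100 probe sets with an interaction of 1 (log2) and 38 of 100 with an interaction of 2, with 0 false calls among 22546. These 22546 were made additive, whereas 1516 passed in the data. The adjusted threshold depends on how many probe sets change, so recovery in the data may differ. Gene names came from the platform annotation: 13513 probe sets had 1 gene, 503 several and 8730 none. Of those with 1 gene, 13436 were matched to RefSeq and 1550 had a symbol.

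Named genes had a symbol and 1 gene, passed at pseudocounts of 1 and of the dim level of 19.1, had a group mean over that level, and had atmyc2 arrays that did not overlap WT or double mutant arrays that did not overlap cop1-6. The 15 highest and 15 lowest by the smaller interaction were taken, with up to 4 of each list holding 3 or more calls, and 2 of each pattern. The members and lists were chosen with earlier results of these data known, and the 8 lists added last were chosen after values were seen. Alternatives were other pseudocounts, filters on dim probe sets, quantile normalization, no trend, a replicate block, all 24 arrays and leaving out each array. The planned description of promoter motifs was not run.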

Additional observations from a re-analysis of the deposited data

Results flagged for a closer look

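Each value here is a dark interaction minus the same contrast in blue light (log2) that passed limma's test of that difference. The named probe sets were chosen for large dark interactions, which favours such differences. In all, 322 probe sets lay above 0 and 314 below.

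Among named probe sets, 12 plastid genes differed below 0, among them psaC by -5.19, psbK by -4.52, ndhE by -4.35, petL by -3.75 and ccsA by -3.50. Smaller differences below 0 were those of psbA (-3.28), matK (-3.19), ndhD (-3.12), ndhI (-2.83), atpA (-2.74) and psbI (-2.45). The difference of -5.28 at ndhG rests on dark WT readings of 6.2 and 0.5, under the dim level of 19.1, and its dark interaction of -4.04 was -2.02 with that level as pseudocount. Dark WT readings of ndhE, 8.5 and 13.8, were under that level too. Outside the plastid, EXPA18 differed by -4.48, ATG8E by -2.83, STR18 by -2.07 and 1 nad1 probe set by -2.01. EXPA18 read 5.1 and 7.5 in the dark double mutant, under the dim level.

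Above 0 were CYP71B23 (4.12), NET4B (3.07), NAI2 (2.54), UGT87A2 (2.30), bHLH121 (2.24), ALDH2C4 (1.93), CYP71B6 (1.81) and HON4 (1.78).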

How the results depend on the processing

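No named gene changed direction under any alternative. Other probe sets were checked for direction only where they passed both in the main fit and in the alternative, and none of those changed. Dim filters raised the 771 calls above additivity to 1188 (40th percentile) and 1208 (60th). Without limma's trend and robust options 0 passed above, 0 below and 0 plastid genes below, with 4390 at an unadjusted p under 0.05. All 42 named probe sets lost their call in that fit. Leaving out each array gave 18 to 2509 above, 67 to 1699 below and 11 to 34 plastid genes below (where an arm keeps 1 array, it is assumed to vary like the others). The difference from blue light gave 524 above 0 with the dim filter, 141 with quantile normalization, and 3 above and 5 below without trend. Leaving out each array gave 12 to 1606 above 0 and 28 to 969 below. With all 24 arrays in 1 fit 1149 passed above, 694 below and 32 plastid genes below, and the atmyc2 effects called only with cop1-6 went from 249 to 155. In that fit 10 of the 42 named probe sets lost their call, mitochondrial calls went from 3 to 0, MYB and bHLH calls from 3 to 1, branched-chain breakdown calls from 4 to 1, and the plastid call above from 1 to 0. The causes were not tested.

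Deviations of same-numbered arrays correlated at -0.052 to 0.019 between groups. These correlations span all probe sets, dim ones included, so they cannot settle whether same-numbered samples were handled together. With a replicate block 1144 probe sets passed, 1126 of them among the 1516, and the difference from blue light had 568 above 0.

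Each group had only 2 arrays, and how far that number limits the counts was not tested. Simulated interactions of 1 were recovered in 1 of 100 cases, in simulated data where 22546 probe sets were made additive. Genes without a symbol, and MYC2 and COP1, are not described by name.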

Other observations

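Several gene families not described above were looked up after values were seen, so their counts are descriptions. Over all probe sets 3.39% lay above additivity and 3.28% below. RALF and CLE peptides, short secreted signals, had 4 of 17 below additivity and a median of -0.98, with an interaction under 0 at all 17. RALFL27 read 28.2 and 65.2 in WT, 110.6 and 112 in atmyc2, 18.3 and 13.4 in cop1-6, and 0.5 and 5.3 in the double mutant. It was lowest in the double mutant, and its interaction was -3.79 (limma adjusted p = 0.0203). CLE27, RALFL33 and RALFL22 had -3.51, -1.41 and -1.27. With the dim level of 19.1 as pseudocount RALFL27 and CLE27 had -1.72 and -1.68. The count of 4 was 2 without WT replicate 1 or atmyc2 replicate 2, 0 without atmyc2 replicate 1 or double mutant replicate 1, and 8 without cop1-6 replicate 2.

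Tetraspanins, membrane proteins that organise other proteins into clusters, had 3 of 15 below (TET3, TET6 and TET2). TET3 averaged 630.35 in WT, 1340.05 in atmyc2, 563.5 in cop1-6 and 431.7 in the double mutant, with an interaction of -1.46 (limma adjusted p = 0.00578). The count of 3 was 1 without either WT replicate or double mutant replicate 2, and 0 without either atmyc2 replicate or double mutant replicate 1.

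Methionine sulfoxide reductases, which repair oxidised protein, had 2 of 5 below (MSRB3 and MSRB9, -1.54 and -1.31). Sm-like RNA-binding proteins had 2 of 6 below and PRA1 membrane traffic proteins 2 of 9 below. SNF7 and VPS proteins, which remodel endosomal membranes, had 2 of 12 above (SNF7.1 and SNF7.2, 1.52 and 1.36). Of these, the MSRB3 and MSRB9 calls were lost without WT replicate 1 or any atmyc2 or double mutant array, and the SNF7.2 call without any array but cop1-6 replicate 2. The SNF7.1 call was lost without WT replicate 2, atmyc2 replicate 1 or either double mutant array. The 4 calls among Sm-like and PRA1 genes (LSM6B, LSM1B, PRA1.A1 and PRA1.B6) were lost without 3 to 6 of the single arrays, atmyc2 replicates 1 and 2 and double mutant replicate 1 among them.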
